A study of Saccharomyces cerevisiae with 11 samples.

Results

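Translational efficiency, the number of ribosome footprints of an open reading frame (ORF) relative to its RNA, was compared between Young and Middle cells of the budding yeast Saccharomyces cerevisiae. The described set consisted of the 1353 ORFs, of 6668 counted, that had a mean of at least 50 footprints over the 4 footprint libraries of both ages. Cells of the diploid wild-type strain BY4743 were labeled on their surface with biotin and grown in synthetic defined medium at 25 °C for 13 h, and streptavidin beads then split the culture. Young cells were the daughters left in the supernatant, and Middle cells were the biotin-labeled mothers held by the beads, so the bead-bound state and the age cannot be told apart. Each age had 2 replicates, and the RNA-Seq and the footprint library of a replicate came from 1 lysate (Young 1, Young 2, Middle 1 and Middle 2).

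Ribosome profiling sequences the short pieces of mRNA that a translating ribosome shields from nuclease, so the footprints of an ORF reflect both how much mRNA is present and how densely ribosomes occupy it. Dividing footprints by RNA leaves the second part, and a difference of that ratio between ages is a change of translational efficiency. In growing yeast, many ribosomes are occupied by mRNAs of the translation machinery, glycolysis and the cell surface, and the synthesis of ribosomal proteins and of cell wall proteins is tied closely to growth.

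A footprint can be assigned to a gene only where its sequence is found once in the genome. The coding stretches shown here belong to members on which results turn, beside the paralog with which each could share reads. They were read from the R64 genome of strain S288C. Each stretch spans 60 nt, in capitals are the bases that differ within the pair, and of all such stretches with at most 30% differing bases the one with the most was taken. PMA2 (chrXVI:483170-483229, plus strand) and PMA1 (chrVII:482367-482426, minus strand), the minor and the major plasma membrane proton pump, differed at 18 bases.
PMA2: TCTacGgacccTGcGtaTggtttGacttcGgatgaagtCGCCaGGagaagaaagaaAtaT
PMA1: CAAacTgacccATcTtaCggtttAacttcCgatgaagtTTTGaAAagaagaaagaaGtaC
ANB1 (chrX:525049-525108, minus strand) and HYP2 (chrV:85949-86008, plus strand), the anaerobic and the aerobic gene of translation factor eIF5A, differed at 10 bases.
ANB1: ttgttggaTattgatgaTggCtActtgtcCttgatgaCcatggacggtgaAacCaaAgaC
HYP2: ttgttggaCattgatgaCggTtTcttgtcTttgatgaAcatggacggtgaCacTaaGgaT
RPL4A (chrII:301195-301254, plus strand) and RPL4B (chrIV:472882-472941, plus strand), both encoding ribosomal protein L4, differed at 6 bases.
RPL4A: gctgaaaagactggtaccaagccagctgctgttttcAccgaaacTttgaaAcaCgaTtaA
RPL4B: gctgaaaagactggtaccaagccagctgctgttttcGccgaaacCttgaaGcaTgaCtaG
The start of CCW12 (chrXII:370039-370098, minus strand), a cell wall mannoprotein, is shown with its start codon in capitals, because its adjusted p was the smallest of the members that share no 28-nt window.
CCW12: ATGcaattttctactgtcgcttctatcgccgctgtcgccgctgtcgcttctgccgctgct
Of all 28-nt windows of the coding sequence, 4.7% were also found elsewhere for PMA2, 9.4% for ANB1, 83.8% for RPL4A and 0% for CCW12. Among the 1349 members with a reference sequence, 118 had more than 10% of such windows.

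The 4 RNA-Seq libraries held 476704 to 2585717 counts and the 4 footprint libraries 168247 to 518833, and no 2 libraries were identical. Members carried 79.8% to 85% of the footprints. Checks of the labels gave 2 facts that go against them. Genes expressed in daughters, such as CTS1 and EGT2, were expected to be lower in mothers, yet 0 of 10 had less RNA in both Middle libraries than in both Young ones, with summed levels of 1029.1 and 467.3 CPM (counts scaled to the library size) in Young and 1082.8 and 639.8 in Middle cells. URA3 and LEU2, which the genotype of BY4743 lacks, had 36 to 412 and 16 to 142 RNA reads in every library. Genes used only by haploid cells summed to 147.6 and 105.1 CPM in Young against 49.5 and 54.2 in Middle cells, and 9 of 10 had less RNA in both Middle libraries. The part of these facts in the results was not tested.

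In the test of the age-by-assay interaction over 5334 ORFs (edgeR, Benjamini-Hochberg adjusted), 0 members differed in translational efficiency at an adjusted p under 0.05 (background 0% in either direction), and the smallest adjusted p was 0.9998. Before adjustment, 1 member was higher (background 1.18%) and 52 were lower (3.84%, background 2.04%). Because both libraries of a replicate came from 1 lysate, the same interaction was also fitted with the lysates as blocks, so that footprints are compared with the RNA of the same lysate. In that fit 18 members were higher (1.33%, background 2.49%) and 181 lower (13.4%, background 6.39%) before adjustment. After it, the translational efficiency of 3 members rose (0.222%, background 0.169%) and that of 39 fell (2.88%, background 0.9%). The 39 were 20 genes of the retrotransposon Ty2, 5 ribosomal protein genes, 6 genes of cell wall or secreted proteins, the proton pump PMA2 and 7 others. DESeq2 without a block called 0 higher and 20 lower members.

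The median of the members lay below 0. The median log2 change of translational efficiency was −0.22 over the members (5th to 95th percentile −1.25 to 0.50) against −0.07 over all ORFs tested, and 951 members (70.3%, background 54.7%) were below 0. The median standard error (SE) of a member was 0.53, and the median difference of a member's log2 efficiency between lysates of 1 age was 0.41 in Young and 0.34 in Middle cells. In 465 members both Middle lysates lay below both Young lysates (34.4%, background 21.8%), and in 154 both lay above (11.4%, background 18.3%). More than 2-fold changes in the fitted value were reached by 5 members upward (0.37%, background 6.79%) and by 120 downward (8.87%, background 8.87%). Without the footprint library of Young 2 these counts were 64 and 268, and without the RNA library of Middle 1 they were 12 and 81. Scaled by library totals, the median of all ORFs moved from −0.07 to 0.08, that of the members to −0.06, and 10 and 76 members passed 2-fold. The minimum of 50 footprints was reached in both ages by 999 members, of which 52 were past 2-fold lower (median −0.18). It was reached in Young only by 272 members, of which 66 were past 2-fold lower (median −0.56), and in Middle only by 82 members (median 0.30). The latter 2 groups had to differ in footprints, so the counts over all members carry this choice. Of the 39 members called lower with lysates as blocks, 24 reached the minimum in both ages and 15 in Young only, namely 8 Ty2 genes, PMA2, URA2, GCN1, CWP2, PRT1, CSS1 and RPL8B.

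Changes of footprints followed changes of RNA. Across members the log2 change of footprints correlated with that of RNA with r = 0.89 (n = 1353 ORFs, which share libraries and are not replicates). RNA was more than 2-fold higher in 249 members and lower in 108, footprints in 227 and 275. Of the 120 members past 2-fold lower in efficiency, 84 also had less RNA and 36 had more.

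**Figure D1:**
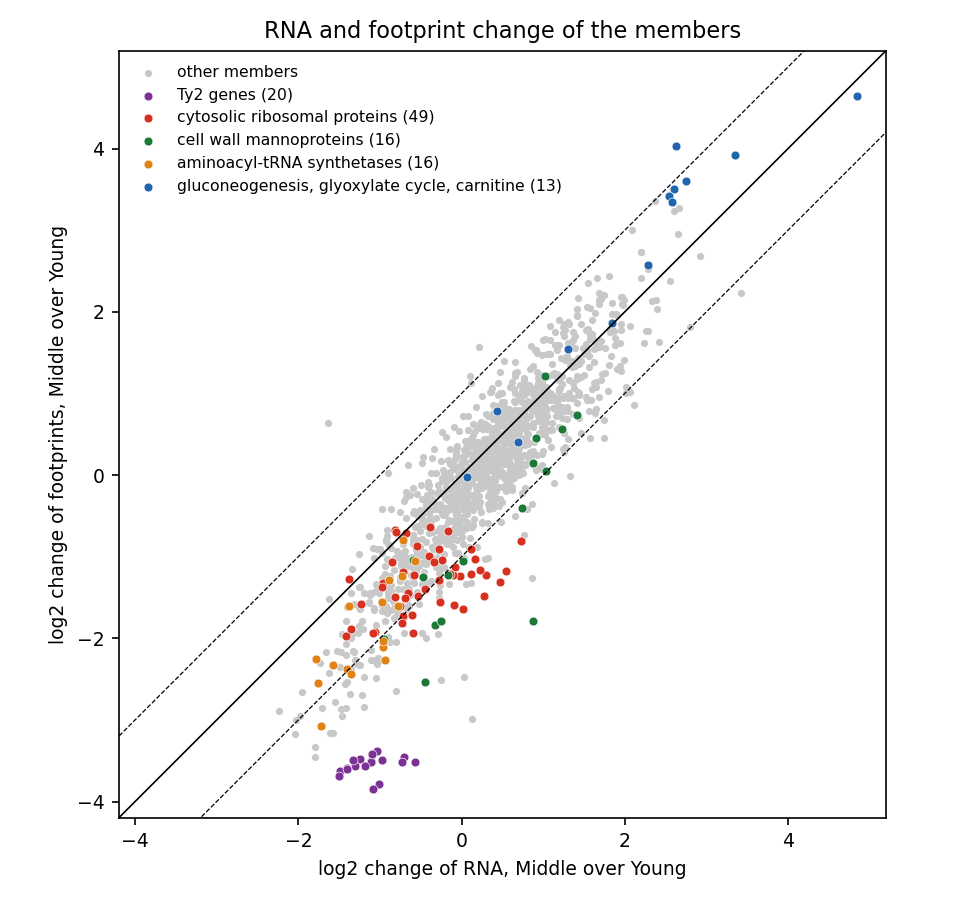
Fitted log2 change of RNA (x axis) and of footprints (y axis) of the 1353 members, Middle over Young. On the solid line translational efficiency is equal, and the dashed lines mark a 2-fold difference. The 20 Ty2 genes form a group below the lower dashed line, at footprint changes of −3.38 to −3.85, and most genes of gluconeogenesis lie at the upper right.

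Proteins of the cell wall were prominent among the members that fell. CCW12 (YLR110C) had 1292 and 996 footprints in Young against 150 and 340 in Middle cells, while its RNA reads were 696 and 1100 in Young against 669 and 935 in Middle cells. Its log2 translational efficiency was 2.66 and 2.57 in the Young lysates and −0.32 and 0.48 in the Middle lysates, without overlap. It fell by 2.53 on the log2 scale (SE 0.36, adjusted p = 2.85e-09 with lysates as blocks), against −2.67 (SE 0.79, unadjusted p = 0.00512) without blocks. When each lysate was left out in turn, the change stayed between −2.96 and −2.24 and was called in 4 of 4 fits.

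HPF1 (YOL155C, a mannoprotein that reduces protein haze) had 798 and 453 footprints in Young against 55 and 116 in Middle cells, with 910 and 1107 against 494 and 489 RNA reads. It fell by 2.20 (SE 0.36, adjusted p = 6.2e-07 with lysates as blocks) and was called in 4 of 4 fits without 1 lysate, although 23.3% of its 28-nt windows recur in the genome and 10.2% are found in CSS1. CSS1 (YIL169C) fell by 2.15 (adjusted p = 1.67e-05) and was called in 3 of 4, not without Middle 2. Reads of these paralogs could be split either way. CWP2 (YKL096W-A), a small mannoprotein linked to glucan, had log2 efficiencies of 3.30 and 3.87 in Young against 0.99 and 2.34 in Middle lysates. It fell by 1.89 (adjusted p = 0.0014). The soluble cell wall glucanase SCW4 fell by 1.58 (adjusted p = 0.0046) and the secreted glycoprotein YGP1 by 1.61 (adjusted p = 0.00522). CWP2 and SCW4 were each called in 2 of 4 fits without 1 lysate. Without Middle 1 they were at −1.36 (adjusted p = 0.582) and −1.21 (adjusted p = 0.54), and without Young 2 at −1.63 (adjusted p = 0.0532) and −1.26 (adjusted p = 0.112). YGP1 was called only without Young 1.

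On a list of 26 cell wall mannoproteins, 16 were members, of which 2 (CCW12 and CWP2) were called lower with lysates as blocks and 0 higher. The median log2 change of the 16 was −1.02, against −0.22 over all members. Their RNA had a median of 0.38 and their footprints of −1.04. The median level of log2 efficiency was 2.77 and 3.04 in the Young lysates and 1.60 and 2.18 in the Middle lysates, where all members together had 0.82 and 0.62, then 0.45 and 0.60. In 12 of the 16 both Middle lysates lay below both Young lysates (34.4% of all members, background 21.8%). The list ran from CCW12 to YPS1 (0.19), a protease of the cell surface. Between them were DAN4 (−1.54), TIR1 (−1.52), PST1 (−1.13), CCW14 (−1.07), ECM33 (−1.06) and TIP1 (−1.06), none of which was called, and CWP1 (−0.44), which turned to 0.75 without the footprint library of Young 2. Left-out libraries moved the median of the list from −1.47 (without RNA Young 1) to −0.45 (without RNA Middle 1). For the 6 tested mannoproteins under the footprint minimum the median was 0.93. CWP2, DAN4, TIR1, PST1, TIP1 and CWP1 reached the minimum in Young cells only. Such members had to be lower in footprints in Middle cells, so the values of this list carry this choice.

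Enzymes that make or remodel glucan and chitin (14 members) had a median of −0.59 (−0.98 to −0.40 without 1 library), from SCW4 (−1.66) to CHS1 (0.38), a chitin synthase. SCW4 was their only called member. FKS1, the catalytic subunit of glucan synthase, had 343 and 210 footprints in Young against 15 and 47 in Middle cells and 930 and 2298 against 148 and 485 RNA reads. FKS1 thus met the footprint minimum through Young cells alone. Its efficiency differed by −1.39 (SE 0.63, adjusted p = 0.114 with lysates as blocks) and by −0.60 without the footprint library of Young 1. By the annotated location of the product, 33 of 34 members of the cell wall were below 0 (median −0.78). Of all members 70.3% were below 0 (background 54.7%). Both Middle lysates lay below both Young ones in 26 of the 34 (76.5%), against 34.4% of all members (background 21.8%). Any of the 34 that reached the minimum in Young cells only had to be lower in footprints, so these counts can carry this choice. For the plasma membrane the median of 156 members was −0.24 and for the endoplasmic reticulum that of 178 members was −0.20.

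**Figure D2:**
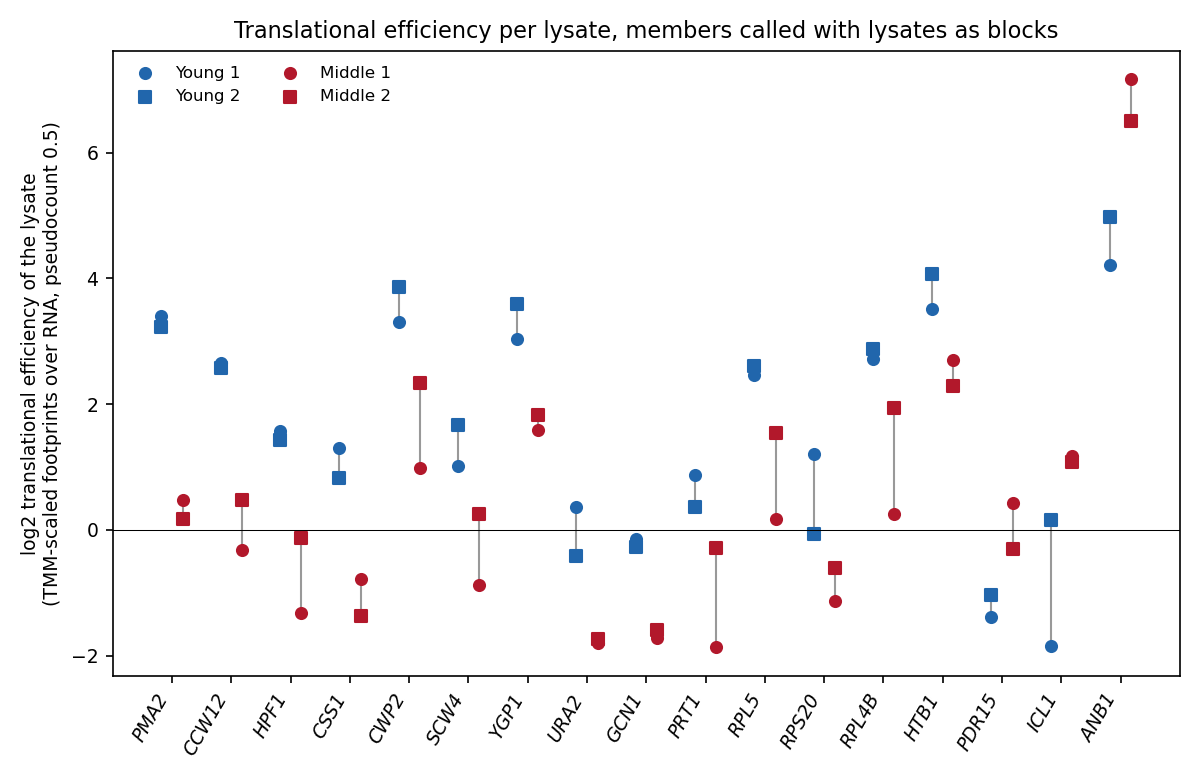
Log2 translational efficiency of each lysate (TMM-scaled footprints over RNA, pseudocount 0.5) for 17 of the members called with lysates as blocks. Circles are replicate 1 and squares replicate 2, blue Young and red Middle, and a grey line joins the lysates of an age. Middle lysates lie below Young ones for the 14 genes from PMA2 to HTB1 and above them for PDR15, ICL1 and ANB1.

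PMA2 (YPL036W, chrXVI:482843-485686) had the smallest p of all members without blocks. Its footprints numbered 176 and 152 in Young against 11 and 19 in Middle cells, while its RNA reads were 56 and 106 in Young against 29 and 66 in Middle cells. The log2 efficiency was 3.41 and 3.23 in Young against 0.47 and 0.17 in Middle lysates, without overlap. With 11 and 19 footprints in Middle cells, PMA2 met the minimum through Young cells alone. It fell by 3.06 (SE 0.47, adjusted p = 4.7e-08 with lysates as blocks), with −3.28 to −2.91 and a call in each of 4 fits without 1 lysate. The difference between PMA2 and its major paralog PMA1 was not tested. Log2 efficiency of PMA1 was 1.12 and 0.69 in Young against −0.18 and 0.33 in Middle lysates, also without overlap. RNA of PMA1 had a log2 change of −2.03 and footprints of −3.0, and its efficiency differed by −0.97 (SE 0.78, adjusted p = 0.398 with lysates as blocks), or by −0.35 without RNA Middle 1. Footprints of PMA1 numbered 2413 and 1894 in Young cells, and 4.8% of its windows recur in PMA2. Among all 25 members of a list of plasma membrane transporters and pumps the median was −0.28, with PMA2 lowest, HXT5 (0.60), a hexose transporter, highest and MEP1, an ammonium permease, at 0.04. Left-out libraries moved the median of this list from −0.77 (without the footprint library of Middle 1) to 0.08 (without RNA Middle 1).

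The genes of the translation machinery lay low as a group. Of 34 members encoding proteins of the large ribosomal subunit, 32 were below 0 (median −0.90), with RNA at −0.53 and footprints at −1.23. Of 15 for the small subunit 14 were (median −0.84). The share below 0 was 70.3% of all members (background 54.7%). Members that reached the minimum in Young cells only, such as RPL8B, had to be lower in footprints, so these values carry this choice. The tested ORFs under the minimum had medians of −0.68 (46 ORFs, large subunit) and −0.78 (41 ORFs, small subunit). With lysates as blocks 4 of the 34 and 1 of the 15 were called lower, and 0 higher. Their median level of log2 efficiency was 2.27 and 1.88 in the Young against 1.18 and 1.58 in the Middle lysates for the large subunit, and 2.06 and 1.61, then 0.88 and 1.10, for the small one. Left-out libraries moved these medians widely. Without the footprint library of Young 1 they were −0.09 and −0.27, whereas the large subunit was at −1.52 without RNA Young 1 and the small one at −1.57 without the footprint library of Young 2. The values within replicate numbers were −1.10 and −1.31 for number 1 and −0.36 and −0.37 for number 2. Ribosomal protein genes took 3.72% of the footprints of Young 1, 1.96% of Young 2, and 1.42% and 1.33% of the Middle libraries.

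RPL5, which binds 5S rRNA and shares no windows, had 463 and 293 footprints in Young against 60 and 191 in Middle cells and 284 and 318 against 189 and 252 RNA reads. It fell by 1.62 (SE 0.37, adjusted p = 0.00171 with lysates as blocks), and was called without every lysate other than Middle 1, where it was at −1.10. Without both libraries of Young 1 it was at −1.73. RPL4B (−1.63) and RPL4A (−1.52) were called too. Without Middle 1 they were at −0.96 and −0.88 and not called, RPL4A was also not called without Young 2 (adjusted p = 0.0657), and reads over most of their length cannot be assigned to 1 of them. RPL8B fell by 1.67 (adjusted p = 0.0108), with 24.4% of windows shared with RPL8A, and was called only without Young 1. RPS20 fell by 1.43 (adjusted p = 0.021), and was called only without Young 2, with −0.82 (adjusted p = 0.773) without Young 1. At the other end were RPL15B (0.10), RPS6B (0.12) and the stalk protein RPP1A (0.14), whose signs turned in several fits that left out 1 library. The paralog of the first, RPL15A, was at −1.31, RPL20B at −0.22, and RPL41A and RPL41B, which are identical over 100% of their windows, at −0.53 and −0.87. None of these was called.

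The 15 elongation and termination factors had a median of −0.62 and the 17 initiation factors of −0.61. Without the footprint library of Young 1 the medians were −0.27 and −0.24, and without that of Young 2 −1.08 and −0.85. PRT1, a subunit of initiation factor eIF3, had log2 efficiencies of 0.87 and 0.36 in Young against −1.87 and −0.29 in Middle lysates and fell by 1.46 (adjusted p = 0.0267 with lysates as blocks), and was not called without Middle 1 (−1.02) or without Young 1 (−1.25, adjusted p = 0.18). The initiation factor HCR1 had the highest value (0.38). NEW1, an ATPase of translation termination, differed by −1.65 (adjusted p = 0.107 with lysates as blocks) with 3 and 11 footprints in Middle cells. All 16 aminoacyl-tRNA synthetases, which load tRNAs with amino acids, were below 0 (median −0.78, or −0.16 without the footprint library of Young 1 and −1.40 without that of Young 2), from CDC60 (−1.36) to HTS1 (−0.07, or 0.12 when scaled by library totals), and 0 of them were called. Their RNA was lower as well (median −0.97) and their footprints were at −2.07. Of all members 70.3% were below 0 (background 54.7%). CDC60 and HTS1 met the footprint minimum through Young cells alone, so the values of this list carry this choice. The 3 tested synthetases under the minimum had a median of −0.82. GCN1, through which uncharged tRNA activates the general amino acid control, had 249 and 226 footprints in Young against 10 and 26 in Middle cells. Its efficiency fell by 1.47 (adjusted p = 0.0482 with lysates as blocks), a call that was lost in each of the 4 fits without 1 lysate.

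ANB1 went the other way. This gene is normally transcribed in cells short of oxygen and encodes the same factor as HYP2. Its footprints numbered 79 and 231 in Young against 101 and 201 in Middle cells, while RNA reads were 14 and 48 in Young against 2 and 8 in Middle cells, so 1 Middle library had fewer than 3 reads. The log2 efficiency was 4.22 and 4.97 in Young against 7.17 and 6.51 in Middle lysates. It rose by 2.09 (SE 0.58, adjusted p = 0.0314 with lysates as blocks), was called only without Young 2, and was at 1.74 (adjusted p = 0.482) without Middle 1. The footprints of ANB1 thus stood over very few RNA reads in every library, and those that fall where ANB1 and HYP2 agree could come from either.

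All 20 ORFs of Ty2 were members, and 0 of 60 ORFs of the related Ty1 were, whose highest mean was 40 footprints. Ty elements are retrotransposons that encode a Gag protein (TYA) and, by a frameshift, a Gag-Pol fusion (TYA-TYB). Summed over the 20 ORFs, footprint counts were 24982 and 17181 in Young against 871 and 1847 in Middle cells. Summed RNA counts were 141373 and 249796 against 24452 and 69809. The log2 efficiency of these sums was −0.73 and −1.15 in Young against −2.98 and −3.30 in Middle lysates, while for the sums of Ty1 it was −2.14 and −2.33, then −1.81 and −2.13. For Ty1 the direction depended on the summary, since the median fitted change of the 31 Ty1 ORFs tested was −0.64. How reads shared by copies of Ty1 were counted is not known, so its low counts may not reflect its level. The paper mapped reads anew to a consensus of each family, because copies are alike. It reported efficiency more than 2-fold lower in Middle cells for Ty1 as well as Ty2. Ty2 took 5.99% and 3.31% of the footprint counts of Young cells against 0.518% and 0.424% of those of Middle cells. With lysates as blocks 20 of 20 fell, with log2 changes from −2.78 to −2.07, and 19 of them were called in all 4 fits without 1 lysate. Copies overlap and share 88.9% to 100% of their 28-nt windows, so the 20 stand for 1 measurement. YGR161W-A and YFL002W-B had the same footprint counts in Young 1 (1856), Young 2 (1239) and Middle 1 (65). Reads thus appear to be counted in more than 1 ORF, and the sums and shares then exceed the number of distinct reads. Without Ty2, 100 members were past 2-fold lower and the median of the members stayed at −0.22.

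The other members that fell came from several pathways. URA2, the first enzyme of pyrimidine synthesis, had 271 and 227 footprints in Young against 16 and 46 in Middle cells, with 716 and 1994 against 203 and 597 RNA reads. Its log2 efficiency was 0.37 and −0.42, then −1.80 and −1.74, and it fell by 1.76 (SE 0.40, adjusted p = 0.00153 with lysates as blocks). It was called only without Young 2. The purine and pyrimidine list as a whole (16 members) had a median of −0.57 (−0.94 to −0.32 without 1 library), with ADE2 (0.09) highest. The histone gene HTB1 fell by 1.33 (adjusted p = 0.0396), with an RNA change of 1.13 and a footprint change of −0.10, and was called only without Young 1. All 8 histone members were below 0 (median −0.68), against 70.3% of all members (background 54.7%). In 6 the Middle lysates lay below the Young ones, against 34.4% of all members (background 21.8%). The RNA of the 8 had a median of 0.89 and their footprints of 0.04. HTA2 (−0.34) was the highest and turned to 0.07 without the footprint library of Young 1. ICY1 fell by 1.36 (adjusted p = 0.027) and ATG41, an autophagy gene, by 1.43 (adjusted p = 0.0187). Both were called only without Young 1, and without RNA Middle 1 and with no block they were at −0.06 and 0.34. YDR133C, an ORF that the reference does not annotate, had 346 and 394 footprints in Young against 69 and 149 in Middle cells and fell by 1.94 (adjusted p = 0.000108, with −1.56 and no call without Middle 1).

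Besides ANB1, the members that rose were ICL1 and PDR15. ICL1, isocitrate lyase of the glyoxylate cycle, had 5 and 60 footprints in Young against 172 and 522 in Middle cells, and 67 and 354 against 270 and 947 RNA reads. Its log2 efficiency was −1.85 and 0.16 in Young against 1.18 and 1.08 in Middle lysates. With 5 and 60 footprints in Young cells, ICL1 met the minimum through Middle cells alone. It rose by 1.52 (SE 0.41, adjusted p = 0.0222 with lysates as blocks), or 0.91 (adjusted p = 0.69) without Young 1 and 3.06 without Young 2, the only left-out lysate with which it was called. PDR15, a drug efflux pump, had 123 and 309 footprints in Young against 321 and 384 in Middle cells and rose by 1.25 (SE 0.35, adjusted p = 0.0372). This call was lost in each fit without 1 lysate, with 0.78 to 1.62. The other members past 2-fold higher in the fit without blocks were PRM10 (1.11), which was named because it is 1 of 5, and GDH2 (1.0), the NAD-dependent glutamate dehydrogenase. Neither was called.

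The other higher members with the smallest p were small in size. FPR3, a nucleolar isomerase, was at 0.91, YAT2, a carnitine acetyltransferase, at 0.91, YGR130C at 0.88, DEF1, which acts in the degradation of stalled RNA polymerase, at 0.78, HNT1 at 0.73, CAJ1 at 0.72, STP2, which activates amino acid permease genes, at 0.68, and SDS23 at 0.64. In each of these 8, as in GDH2, both Middle lysates lay above both Young lysates (11.4% of all members, background 18.3%). They were picked by small p in the same libraries, so this separation largely follows from that choice. In either fit 0 of them were called. YAT2 and HNT1 reached the footprint minimum in Middle cells only.

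Genes of gluconeogenesis, the glyoxylate cycle and the carnitine shuttle, which feed on 2-carbon compounds when glucose runs out, were the list with the highest median. Of its 13 members 10 were above 0 (median 0.34, against −0.22 over all members), 1 was called higher and 0 lower, and in 8 both Middle lysates lay above both Young ones (background 18.3%). Their RNA had a median of 2.54 and their footprints of 3.35. The lowest was CIT2 (−0.28), the peroxisomal citrate synthase. Members that reached the minimum in Middle cells only, as ICL1 did, had to be higher in footprints there, so the list values carry this choice. Without the footprint library of Young 1 the median was 0.15, and without that of Young 2 it was 0.61.

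**Figure D3:**
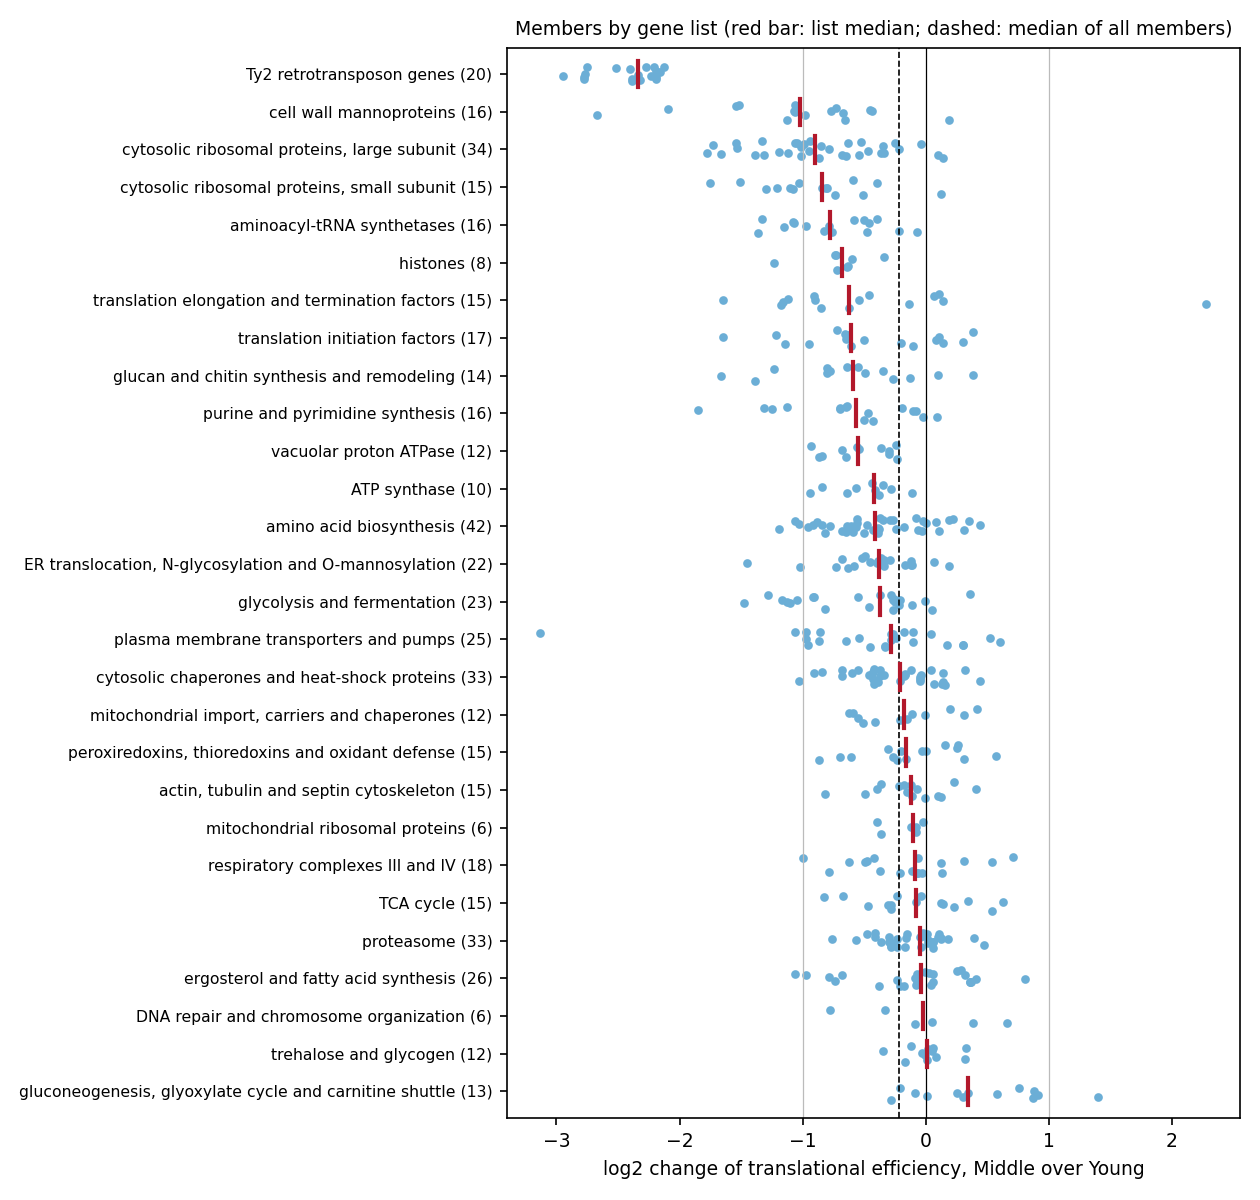
Fitted log2 change of translational efficiency, Middle over Young, of the members of each gene list with at least 6 members (number in parentheses). Each point is an ORF, red bars are list medians, the dashed line is the median of all members (−0.22) and grey lines mark 2-fold. Ty2, mannoproteins and ribosomal proteins have the lowest medians, and gluconeogenesis the highest.

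Other parts of metabolism had medians of efficiency between −0.55 and −0.05. The 18 members of respiratory complexes III and IV had a median RNA change of 1.84, a footprint change of 1.74 and an efficiency change of −0.09, from COX12 (−1.0) to QCR6 (0.71). This median of efficiency went from −0.96 without RNA Young 2 to 0.29 without the footprint library of Young 2. The tricarboxylic acid cycle (15 members) had −0.08, with IDH2 (−0.83) lowest and SDH1 (0.63) highest. ATP synthase (10 members) was at −0.42, from ATP16 (−0.94) to ATP3 (−0.11, or 0.04 when scaled by library totals), and the vacuolar proton ATPase (12 members) at −0.55, from VPH1 (−0.93) to VMA4 (−0.23), with RNA at −0.26 and footprints at −0.86. In both of these lists every member was below 0 (70.3% of all members, background 54.7%), and none was called. Glycolysis and fermentation (23 members) had −0.37, from PFK1 (−1.48) to ALD6 (0.36). It was at −1.24 without the footprint library of Middle 1 and at 0.17 without RNA Middle 1. Amino acid biosynthesis (42 members) had −0.41, from ARO8 (−1.19) to TRP3 (0.44), and −0.94 to −0.06 without 1 library. The 33 proteasome members, a large complex counted in full, had −0.05, from RPN12 (−0.76) to PUP1 (0.47). Scaled by library totals, the medians of complexes III and IV, the tricarboxylic acid cycle and the proteasome were 0.02, 0.07 and 0.10.

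Genes of folding, defense and other functions had medians between −0.38 and 0.01. Cytosolic chaperones (33 members) had −0.21, from SSB1 (−1.03), which binds nascent chains and shares 59.9% of its windows with SSB2, to HSP12 (0.44). The secretory pathway list (22 members) had −0.38, from EUG1 (−1.45), a protein disulfide isomerase, to SCJ1 (0.19). EUG1 had 96 and 111 footprints in Young against 10 and 31 in Middle cells, and was not called (adjusted p = 0.138 with lysates as blocks). It met the footprint minimum through Young cells alone. KAR2, the major chaperone of the endoplasmic reticulum, was at −0.34, and HAC1, the transcription factor of the unfolded protein response, at −0.40 with 237 and 227 footprints in Young against 61 and 230 in Middle cells. Oxidant defense (15 members) had −0.16, from GRX2 (−0.87) to SOD1 (0.57). Sterol and fatty acid synthesis (26 members) had −0.04, from FAS1 (−1.06) to HMG1 (0.81). Mitochondrial carriers and import (12 members) had −0.18, from TOM22 (−0.62) to MIR1 (0.42), and 6 mitochondrial ribosomal proteins −0.10, from RSM28 (−0.40) to PET123 (−0.02). The cytoskeleton (15 members) had −0.12, from ACT1 (−0.82) to SHS1 (0.41), and trehalose and glycogen (12 members) 0.01, from GPH1 (−0.35) to TPS1 (0.33). In these lists 0 members were called. Left-out libraries moved the chaperones from −0.73 (without the footprint library of Middle 1) to 0.17 (without RNA Middle 1), and sterol and fatty acid synthesis from −0.74 (without RNA Young 2) to 0.56 (without the footprint library of Young 2). The medians of the others here stayed between −0.69 and 0.11. Scaled by library totals, 4 of their medians changed sign or left 0, to 0.09 for sterol and fatty acid synthesis, 0.06 for mitochondrial ribosomal proteins, 0.06 for the cytoskeleton and 0.18 for trehalose and glycogen.

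Both replicate numbers gave changes in the same direction for most of the lowest lists, but not of the same size. The median change of all members was −0.40 between Middle 1 and Young 1 and −0.06 between Middle 2 and Young 2, and the changes of the 2 numbers correlated with r = 0.47 across 1353 members, or 0.38 across 1333 without Ty2. Efficiency was lower in Middle in both numbers for 628 members (46.4%, background 30.8%) and higher in both for 242 (17.9%, background 27.2%). Mannoproteins were at −0.95 and −0.80, histones at −0.76 and −0.54 and Ty2 at −2.26 and −2.18, whereas aminoacyl-tRNA synthetases were at −1.06 and −0.22. Middle 1 and Young 1 had the shallowest footprint libraries.

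**Figure D4:**
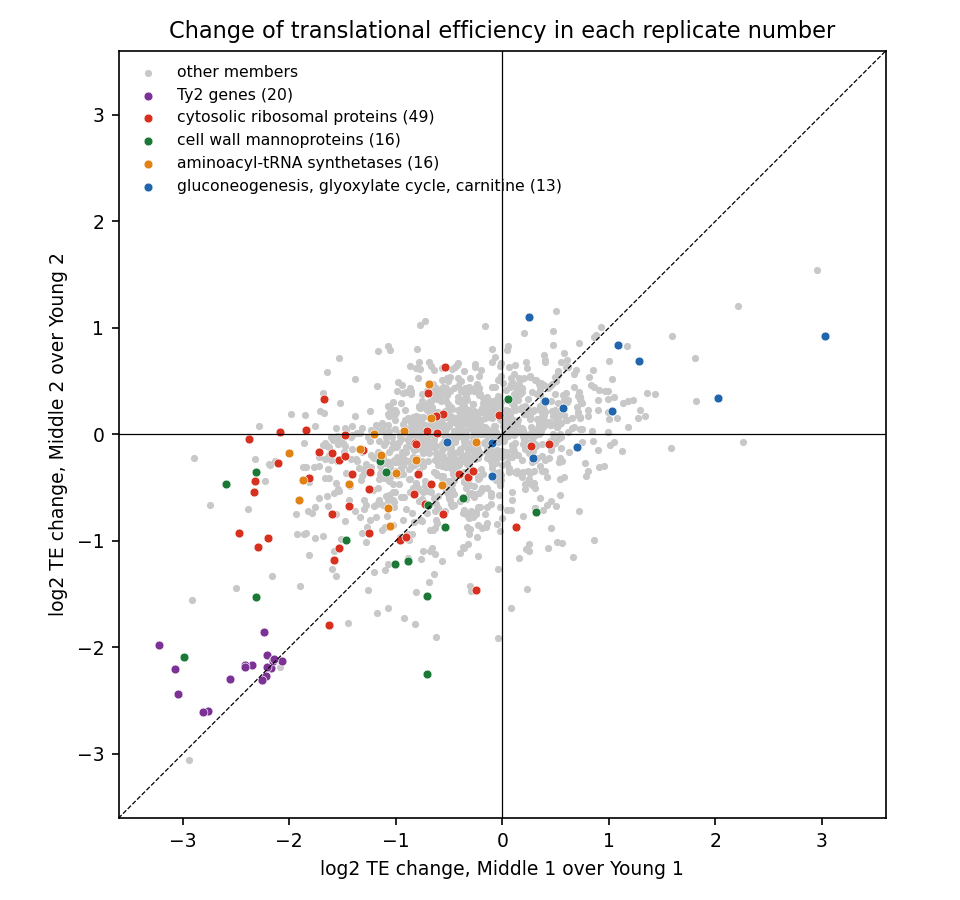
Log2 change of translational efficiency of each member between Middle 1 and Young 1 (x axis) and between Middle 2 and Young 2 (y axis). On the dashed line both changes are equal. Ty2 genes lie near −2.26 and −2.18, and most ribosomal protein genes lie farther left than down.

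The change was also set beside features of the ORFs. By quintiles of coding length, the median change was −0.34 for members of 16 to 240 codons, with 35 ribosomal protein genes among 271, and −0.25 to −0.19 in the other quintiles. By quintiles of mean footprints, on which the members were chosen, it went from −0.14 (50 to 64.25 footprints) to −0.33 (223.5 to 8844 footprints). Pearson's r of the change was −0.01 with log2 coding length, −0.16 with log2 mean footprints and 0.06 with GC content over 1353, 1353 and 1349 members, given as a description. An intron was annotated in 15.1% of 119 members past 2-fold lower and in 4.89% of all 1349 members with a reference sequence, or in 3.85% of 78 and 2.97% of 1280 once Ty2 and ribosomal protein genes were left out. An adenine at the third base before the start codon was present in 76.5% and 70.6%, or 70.5% and 69.9%.

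The members nearest to the minimum were RKR1 and RPL9B, each with a mean of 50 footprints, at changes of −1.26 and −0.04. AIM2 and HOS2, just outside with 49.75, were at 0.16 and −0.13.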

How the data were processed

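The authors trimmed reads with Fastp, removed non-coding RNA, aligned to S288C (R64, sacCer3) with STAR 2.7.0a and deposited raw read counts per coding sequence, leaving out the first and last 5 codons. Each footprint was counted at its A-site. The deposited second column is coding length in codons. Strand use and multiply mapped reads are not given in the sources used here, so overlapping, antisense and near-identical genes can share reads. The equal counts of identical Ty2 copies point to such reads being counted in each copy.

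The test was edgeR 4.0.16 in R 4.3.3 (filterByExpr, TMM over 8 libraries, quasi-likelihood test of age by assay, two-sided, Benjamini-Hochberg over 5334 ORFs, threshold 0.05). DESeq2 1.42.0, other scalings and filters, blocks, and leaving out each library were alternatives. Fits were also run on simulated counts drawn without a shared lysate effect. That run cannot show how the lysate block performs where RNA and footprints of a lysate deviate together. RNA and footprint changes come from the same fit and were not tested. RNA and footprints of a lysate deviated together from their age means (r = 0.736 in Young, 0.613 in Middle cells, across members), and the study's methods state the shared lysate. Separate cultures are not stated, so p-values measure at most the spread between these samples. The fits share part of their estimate of spread across ORFs. With lysates as blocks it is largely shared, so those p-values do not measure an ORF's own spread between the lysates of an age. Without blocks the SE of members varied more (0.39 to 1.5), and 0 members were called. It was 1.32 for ATG41 and 1.14 for HMG1, against 0.38 for each with lysates as blocks. With lysates as blocks, ICL1 had an SE of 0.41 with Young lysates at −1.85 and 0.16. PMA2 had an SE of 0.47 with Young lysates at 3.41 and 3.23. A count of 3 corresponded to 1.16 to 17.8 CPM.

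Members and gene lists were chosen with earlier results of these data known. Named are the 12 higher and 12 lower members of smallest p, those called with lysate blocks, the extremes of each list and members the paper names. The extremes of 1 list are not reported here. Names and positions come from RefSeq R64, which matched 5989 of 6668 ORFs.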

Additional observations from a re-analysis of the deposited data

How the results depend on the processing

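No member was called without blocks under any other scaling, under other filters, in a fit of all 3 ages or without 1 library. DESeq2 called 20 lower members, the block by replicate number 9 lower and the block by lysate 3 higher and 39 lower. The number pairs Young with Middle cells, which the labels do not state. Counts past 2-fold were 10 higher and 76 lower with library totals, 2 higher with at least 10 counts in every library, 17 and 182 with a minimum of 25 footprints, and 73 lower with 100. Without Ty2 and ribosomal protein genes, a choice made after seeing the data, 79 were lower. With these scalings the share of higher members among those past 2-fold was between 3.17% and 11.6%, and for all ORFs it moved from 43.4% to 58% with library totals.

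Leaving out each library, or each lysate under the block (added after seeing the data, the lone lysate being taken to vary like the other age), gave 0 to 6 higher and 0 to 46 lower calls, 4 to 64 members past 2-fold higher and 81 to 268 lower, and medians from −0.35 to −0.15. Of the 112 members that the naming rule chose, 24 changed sign in such a fit, and 1 of them (ATG41) was called with lysates as blocks. Lowest and highest values were −0.24 and 0.29 for ADE2, −0.40 and 0.95 for ALD6, −3.12 and 0.34 for ATG41, −0.22 and 0.69 for CHS1, −0.90 and 0.16 for CIT2, −1.79 and 0.26 for COX12, −1.16 and 0.75 for CWP1, −0.73 and 0.10 for GPH1, −0.80 and 2.62 for HMG1, −0.14 and 0.81 for HSP12, −0.81 and 0.07 for HTA2, −0.43 and 0.25 for HTS1, −0.11 and 1.55 for HXT5, −0.74 and 0.15 for KAR2, −0.37 and 0.17 for MEP1, −0.55 and 0.38 for PET123, −0.61 and 0.93 for RPL15B, −0.78 and 0.33 for RPL20B, −1.24 and 0.46 for RPL41A, −0.99 and 0.83 for RPP1A, −0.76 and 0.63 for RPS6B, −0.17 and 0.48 for SCJ1, −0.14 and 0.90 for TRP3 and −0.07 and 0.31 for YPS1. In other settings ATP3, HTS1 and PET123 were at 0.04, 0.12 and 0.14 with library totals, PET123 at 0.04 with at least 10 counts in every library, MEP1 at 0 without a filter and −0.06 in the fit of 3 ages, and ADE2 at 0 in the latter. The causes were not tested. The shallowest footprint library had a median of 42 footprints per member.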
